A study of Homo sapiens with 6 samples.

Results

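The 10 genes described here are factors and target genes of YAP-TEAD transcription, read in A549 cells that carried an IL17D vector or an empty vector. They were taken by name from the deposited gene table, and all 10 were found among its 58735 genes. All 10 also passed the filter on low counts that left 15754 genes for testing. Of these genes, CYR61, CTGF, ANKRD1, AMOTL2, AJUBA and LATS2 were read as targets, and YAP1, WWTR1, TEAD1 and TEAD4 as factors.

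A549 is a human lung adenocarcinoma cell line. Both groups had 3 libraries of total RNA from cells grown in RPMI1640 medium with fetal bovine serum. The control cells overexpressed an empty vector, and the IL17D cells overexpressed the cytokine IL17D. According to the study's methods, IL17D was cloned into a lentiviral vector with the human PGK promoter and GFP behind an internal ribosome entry site. The sources used here do not say whether either line was 1 clone, nor whether the 3 libraries of a group came from separate cultures, so the p-values measure the spread between these libraries, which may be technical.

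YAP1 and WWTR1, whose protein is called TAZ, are coactivators with no DNA-binding domain of their own, and they act on genes mainly by binding TEAD proteins. In the Hippo pathway, the kinases LATS1 and LATS2 phosphorylate both coactivators, which keeps them out of the nucleus. CYR61 and CTGF are widely used as readouts of this activity in epithelial and cancer cells. Read counts measure RNA only, so neither phosphorylation nor location of the proteins was measured.

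The DNA letters that TEAD proteins recognise were looked up first, to show where they stand before the annotated starts of these genes. The RefSeq promoters (GRCh38.p14) covered 7 of the 10 genes with 10 start sites, and CYR61, TEAD1 and TEAD4 were not among them. The TEAD motif was searched as GGAATG, or as CATTCC on the other strand, in the 250 bases before each start. It was present at 5 of the 10 start sites, in CTGF, ANKRD1, AMOTL2, AJUBA and YAP1, whereas 11.9% of 34943 promoters of the same length held it. The genes were chosen as YAP-TEAD factors and targets, and AMOTL2, AJUBA and WWTR1 gave 2 start sites each. These shares are therefore a description and not a test. CTGF, which encodes a secreted matrix-associated protein, had 3 matches, a number reached by 0.0830% of promoters. They lie in the stretch chr6:131951450-131951553 (minus strand), which runs from -181 to -78 relative to the start and is shown because it holds all 3 matches of the gene, in capitals.
CTGF: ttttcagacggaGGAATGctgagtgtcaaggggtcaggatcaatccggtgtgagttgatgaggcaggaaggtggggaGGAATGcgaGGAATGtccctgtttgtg

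ANKRD1, which encodes an ankyrin repeat protein of the nucleus and the muscle sarcomere, had 2 matches, and 0.942% of promoters had 2 or more. AMOTL2, AJUBA and YAP1 had 1 match each. The sites below are shown with 12 bases on either side so that the surroundings of the matches can be compared, with the motif in capitals. They lie at chr10:90921290-90921319 and chr10:90921198-90921227 (both minus strand) for ANKRD1, chr3:134374499-134374528 (minus strand) for AMOTL2, chr14:22976884-22976913 (minus strand) for AJUBA and chr11:102110273-102110302 (plus strand) for YAP1.
ANKRD1 at -220: atcaccaccaaaGGAATGgccctctcacat
ANKRD1 at -128: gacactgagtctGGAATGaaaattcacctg
AMOTL2 at -69: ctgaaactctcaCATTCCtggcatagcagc
AJUBA at -59: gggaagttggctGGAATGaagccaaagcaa
YAP1 at -162: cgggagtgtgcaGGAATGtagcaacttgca

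The AP-1 motif TGANTCA, which FOS and JUN proteins bind, was found in ANKRD1 only among these start sites, from -195 to -189, and in 6.59% of all promoters. The CArG box, the site of serum response factor, was in none of the 10 windows and in 1.16% of all promoters. The motif of AMOTL2 and that of AJUBA stood before the second start site of each gene, which lies inside the gene, and they fell in the gene's own GENCODE 29 exons, 963 and 5741 bases after its first annotated base. The ANKRD1 site at -128 also fell in an exon of the gene, 61 bases after the first annotated base, while the ANKRD1 site at -220 and the sites of CTGF and YAP1 were outside the exons of their genes. LATS2 and WWTR1 had no match in these windows. The WWTR1 start sites, chr3:149703273 and chr3:149658025, lie inside the gene. The bases before its first annotated base, 149736714, were not searched. A match is a run of letters, and no binding was measured in these cells.

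**Figure D1:**
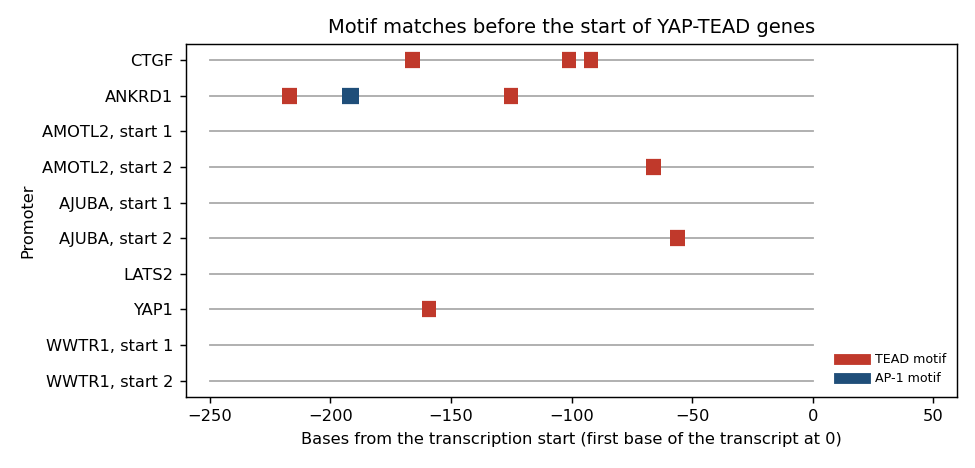
Positions of the TEAD and AP-1 motifs in the 250 bases before each of the 10 start sites, with the distance from the start in bases on the x axis and 1 line per start site. CTGF holds 3 TEAD motifs, ANKRD1 holds 2 and an AP-1 motif, and AMOTL2, AJUBA and YAP1 hold 1 each.

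The libraries held 14319398 to 16521021 counts each, of which 6.85% to 7.36% were on mitochondrial genes, with the ranges of both groups overlapping. IL17D itself had 24, 18 and 34 counts in the control libraries and 31274, 32155 and 26772 in the IL17D libraries, as labelled. The cells had high levels of KRT8 (7648 CPM in control, where CPM are counts scaled to the library size) and KRT18 (3591). However, EPCAM and KRT19 were near 0 in control, at 1.05 and 0.370 CPM. The epithelial markers summed to 11119 to 11539 CPM in control and 10802 to 11040 in IL17D libraries. KRT8 had 7648 ± 130 CPM in control and 7357 ± 135 in IL17D libraries (SD, n = 3 each, edgeR adjusted p = 0.27). Its groups did not overlap, as for 8.31% of all tested genes in this direction. All 4 tested epithelial markers were estimated lower in IL17D cells, while 49.9% of all tested genes were estimated higher. Among these markers, CDH1, the adhesion protein E-cadherin, was lower in IL17D cells, at 43.4 ± 2.65 (SD, n = 3) against 35.7 ± 3.32 CPM, with an adjusted p of 0.031 in edgeR. This call was made by limma voom (adjusted p = 0.032) but not by DESeq2 (0.066). With limma voom, 2 of the 4 tested epithelial markers were called lower, against 131 of all 15754 tested genes. The CDH1 call was lost without control replicates 2 (0.077) or 3 (0.14) and without IL17D replicates 1 (0.27) or 2 (0.081). Its adjusted p ran from 0.0088 to 0.27 over all alternatives. The part of the CDH1 difference in the values below was not tested. Leukocyte markers summed to at most 1.22 CPM and endothelial markers to at most 0.608 CPM, with PTPRC, CD3E, KDR and TEK at 0, and the fibroblast markers, nearly all COL1A1, summed to 19.4 to 24.6 CPM.

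CYR61, which encodes a secreted matricellular protein of the CCN family (chr1:85580761-85583962, hg38, plus strand, ENSG00000142871), was the 1 gene of the 10 whose adjusted p was under 0.05. It had 1290, 1126 and 1287 counts in the control libraries and 1528, 1474 and 1314 in the IL17D libraries. Scaled to library size, these were 79.4, 77.8 and 80.0 CPM against 92.9, 89.6 and 92.1 CPM. Every IL17D library was above every control library. The mean rose from 79.1 ± 1.12 to 91.5 ± 1.69 CPM (SD, n = 3 each), a log2 fold change of 0.21 with a standard error of 0.048 (edgeR, adjusted p = 0.012). This is an increase of 15.7%, with a 95% interval from 8.15% to 23.8%. The spread was 1.42% of the mean in control and 1.84% in IL17D libraries, below the 2.85% and 2.64% that counting alone gives. The call was lost when 1 library was left out in 3 of the 6 cases, at an adjusted p of 0.073 without control replicate 2, 0.083 without IL17D replicate 1 and 0.069 without IL17D replicate 3, while the log2 fold change stayed between 0.20 and 0.23. Over all 12 alternatives the adjusted p ran from 0.0090 to 0.083. In bulk RNA, more cells that express a gene and more RNA per cell cannot be told apart.

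Among all tested genes, 1.58% had an adjusted p under 0.05, 0.673% as higher and 0.908% as lower in IL17D cells. Of the 10 genes, 1 was called higher and 0 lower, with edgeR, with DESeq2 and with limma voom. At an unadjusted p under 0.05, 3 were higher (CYR61, CTGF and YAP1) and 0 lower, whereas 11.6% of tested genes passed that limit in either direction. The groups did not overlap for CYR61 and YAP1, which were higher, and for AJUBA, which was lower, against 7.48% and 8.31% of all tested genes in these directions. The median log2 fold change was 0.05 over the 10 genes, 0.12 over the 6 targets and 0.05 over the 4 factors, and -0.00044 over all tested genes. Of the 10 estimates 8 were above 0, as were 49.9% of all tested genes.

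**Figure D2:**
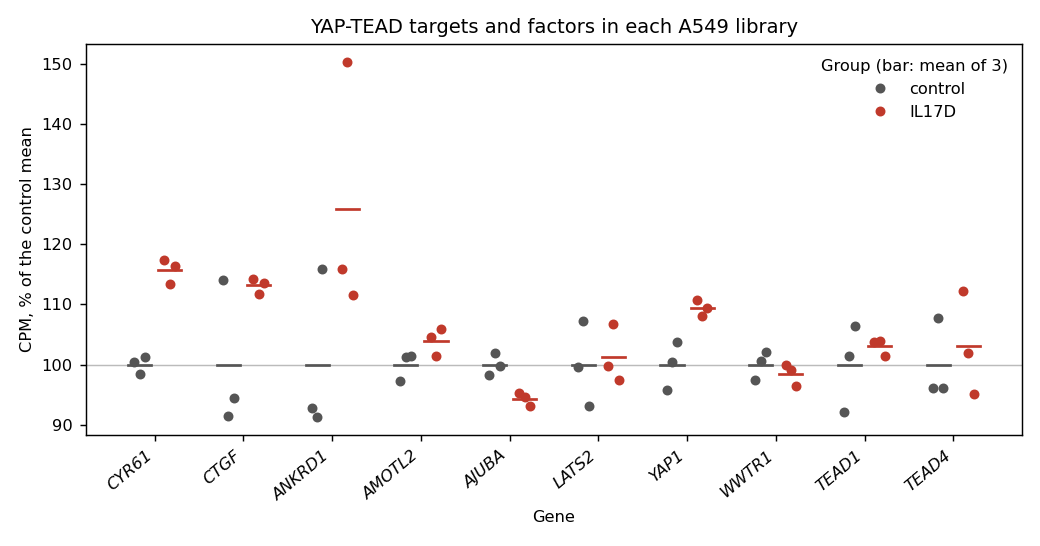
CPM of each of the 10 genes in the 3 control and 3 IL17D libraries, as a percent of the gene's control mean on the y axis, with a point for each library and a bar for the group mean. The IL17D points of CYR61 and YAP1 lie above all control points, and those of AJUBA lie below them.

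CTGF (chr6:131948176-131951373, minus strand, ENSG00000118523) had 707, 504 and 579 counts in control libraries and 716, 700 and 618 in IL17D libraries. On the CPM scale these were 43.5, 34.8 and 36.0 against 43.5, 42.6 and 43.3. Control replicate 1 stood with the IL17D libraries, and the other control libraries were lower. The means were 38.1 ± 4.70 and 43.1 ± 0.499 CPM (SD, n = 3 each), with a log2 fold change of 0.18, a standard error of 0.073 and an adjusted p of 0.31. The spread of the control libraries, 12.3% of their mean, was above the 4.09% that counting alone gives. That of the IL17D libraries was 1.16%, below the 3.84% that counting gives. Without control replicate 1 the log2 fold change was 0.28 and the adjusted p 0.048, so this library decides the call. Over all 12 alternatives the adjusted p of CTGF ran from 0.048 to 0.68. The antisense gene AL133346.1 covers 8.34% of the exon bases of CTGF and had a mean of 1.5 counts.

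ANKRD1 (chr10:90912096-90921276, minus strand, ENSG00000148677) had the fewest counts of the 10 genes, 72, 63 and 89 in control and 91, 118 and 76 in IL17D libraries. These were 4.43, 4.36 and 5.53 CPM against 5.53, 7.18 and 5.33 CPM. The groups overlapped, and IL17D replicate 2 was the highest. The estimated log2 fold change was 0.33, with a 95% interval from -0.020 to 0.69 (adjusted p = 0.48). It was 0.18 without IL17D replicate 2 and 0.46 without control replicate 3, the extremes over the 12 alternatives. The interval corresponds to a difference between -1.37% and 61.0%. The spread of the IL17D libraries was 16.9% of their mean, and counting alone gives 10.3%.

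AMOTL2, a scaffold protein of the angiomotin family that holds YAP in the cytoplasm and is also a target gene (chr3:134355874-134375479, minus strand, ENSG00000114019), had 156.2, 162.6 and 163.0 CPM in control and 167.9, 162.9 and 170.2 CPM in IL17D libraries. The control library at 163.0 CPM lay just above the lowest IL17D library. The log2 fold change of 0.06 had a 95% interval from -0.025 to 0.14 (adjusted p = 0.66).

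AJUBA, a LIM-domain protein of cell junctions that binds LATS kinases (chr14:22971174-22982642, minus strand, ENSG00000129474), had 125.4, 129.97 and 127.3 CPM in control and 121.5, 120.6 and 118.7 CPM in IL17D libraries. All 3 IL17D libraries were below all 3 control libraries. The log2 fold change of -0.08 had a 95% interval from -0.17 to 0.0022, or -11.1% to 0.150%, and the adjusted p was 0.45.

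LATS2, the kinase that phosphorylates YAP and is itself a YAP-TEAD target (chr13:20973032-21061547, minus strand, ENSG00000150457), had 43.4, 46.7 and 40.5 CPM in control and 43.5, 46.5 and 42.5 CPM in IL17D libraries. The groups overlapped fully, with a log2 fold change of 0.02 (adjusted p = 0.95) and a 95% interval from -7.58% to 11.5%. The sign of this estimate turned without control replicate 3 and without IL17D replicate 2. The LATS2 gene lies 249933 bases beyond the native IL17D gene on chromosome 13.

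Among the factors, YAP1 (chr11:102110461-102233423, plus strand, ENSG00000137693) had 84.3, 88.5 and 91.3 CPM in control and 97.4, 95.1 and 96.3 CPM in IL17D libraries. The groups did not overlap, and the lowest IL17D library was 95.1 CPM. The means were 88.0 ± 3.54 and 96.3 ± 1.16 CPM (SD, n = 3 each), a log2 fold change of 0.13 with a standard error of 0.048. The unadjusted p was 0.01 and the adjusted p 0.23, so YAP1 did not pass the correction. The 95% interval of the difference ran from 2.26% to 16.97%.

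WWTR1 (chr3:149517235-149736714, minus strand, ENSG00000018408), the partner of YAP1 in function, had 226.8, 234.0 and 237.4 CPM in control and 232.5, 230.5 and 224.5 CPM in IL17D libraries. These ranges overlapped, the estimate was -0.02 on the log2 scale and the 95% interval ran from -6.45% to 3.70% (adjusted p = 0.89). The antisense gene WWTR1-AS1 covers 9.45% of its exon bases and had a mean of 30 counts, compared with 3618 for WWTR1. Because the strand setting of the counting was not given in the sources used here, reads of such pairs cannot be told apart.

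TEAD1 and TEAD4 encode DNA-binding partners of the coactivators. TEAD1 (chr11:12674591-12944483, plus strand, ENSG00000187079) had 384, 423 and 444 CPM in control and 433, 434 and 424 CPM in IL17D libraries, and its log2 fold change was 0.04 with a 95% interval from -0.033 to 0.12 (adjusted p = 0.73). The control spread of 7.28% was above the 1.24% that counting gives. Control replicate 1 was the lowest, and without it the estimate became -0.01. TEAD4 (chr12:2959330-3040673, plus strand, ENSG00000197905) had 36.9, 41.3 and 36.9 CPM in control and 43.0, 39.1 and 36.5 CPM in IL17D libraries. Its groups overlapped, and the 95% interval ran from -6.57% to 14.4% (adjusted p = 0.87).

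**Figure D3:**
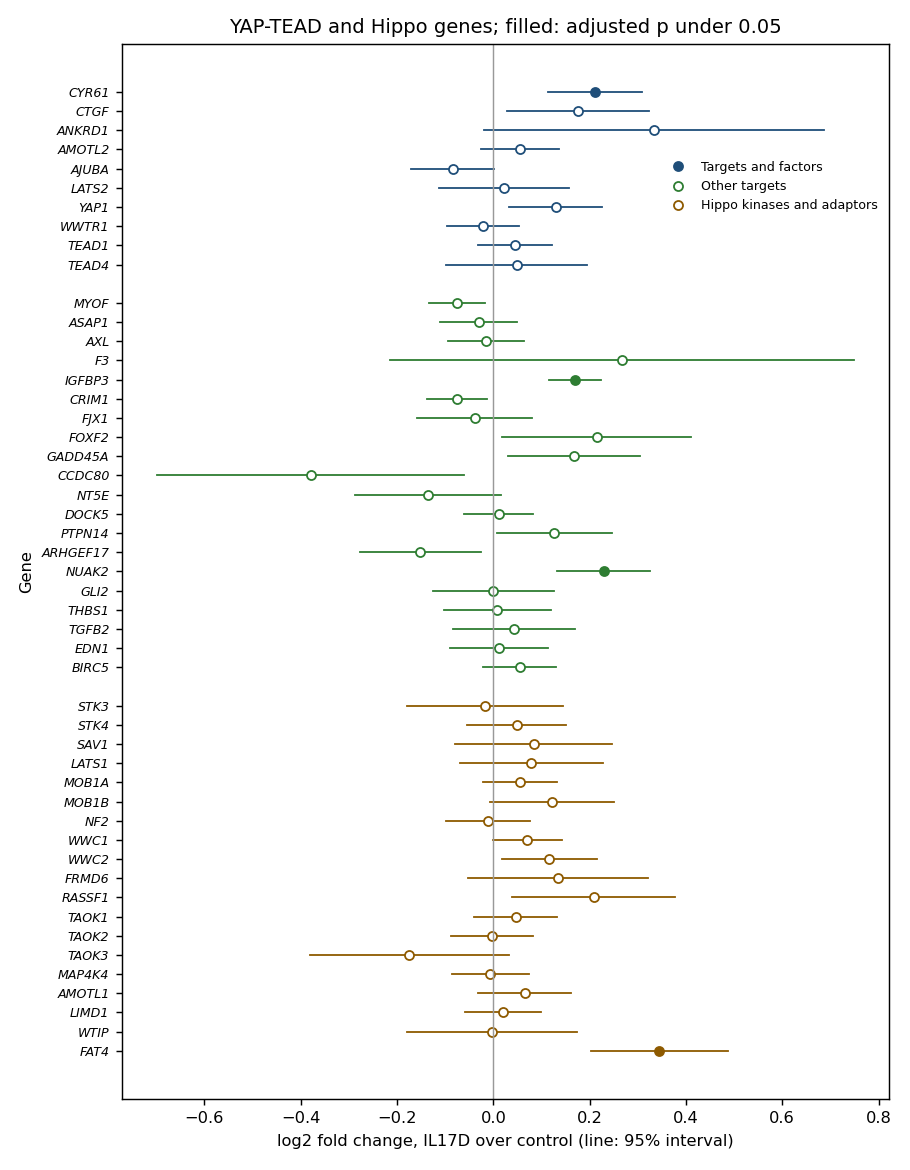
Log2 fold change of IL17D over control cells for the 10 genes, the 20 other tested targets and the 19 tested Hippo kinases and adaptors, with lines for the 95% intervals and filled points for an adjusted p under 0.05. The filled points are CYR61, IGFBP3, NUAK2 and FAT4, all to the right of 0.

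Levels were compared between genes only after division by gene length, which is the merged length of all annotated exons. Which transcripts these cells used was not measured, and the spread between libraries does not cover this. Per kilobase, TEAD1 was highest in control cells at 40.6 ± 2.96 CPM per kb (SD, n = 3), followed by CYR61 at 32.2 ± 0.456, WWTR1 at 27.7 ± 0.646, AMOTL2 at 26.8 ± 0.635 and AJUBA at 21.3 ± 0.388. Lower levels were seen for TEAD4 (16.9 ± 1.14), CTGF (16.3 ± 2.01), YAP1 (13.98 ± 0.562), LATS2 (7.81 ± 0.556) and ANKRD1 (2.41 ± 0.333). The control libraries of WWTR1 and AMOTL2 overlapped, as did those of TEAD4 and CTGF, while the other neighbours in this order did not overlap. WWTR1 therefore stood above YAP1 on this scale, and CYR61 above CTGF. In IL17D cells the mean of AMOTL2 (27.9 ± 0.628) stood above that of WWTR1 (27.2 ± 0.498), and CTGF (18.4 ± 0.214) above TEAD4 (17.4 ± 1.45), but the libraries of each pair overlapped.

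**Figure D4:**
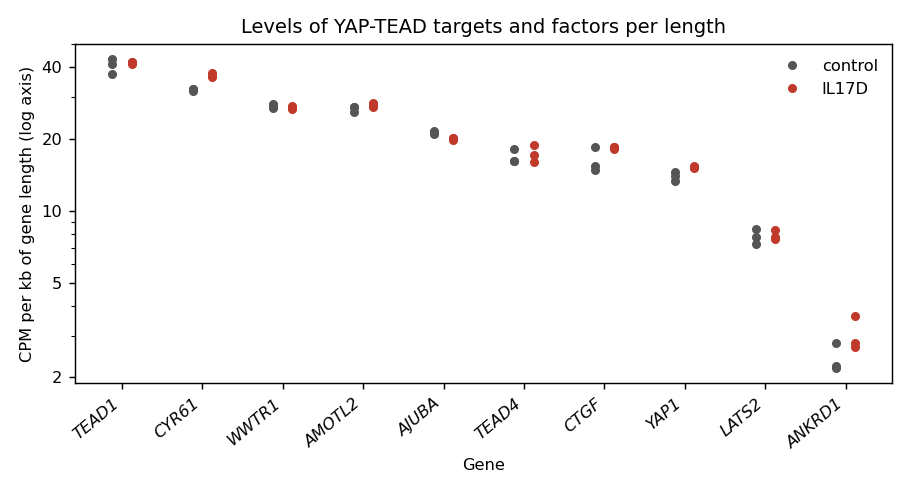
CPM per kilobase of gene length of the 10 genes in each library on a log axis, in order of the control mean, with 1 point per library. TEAD1 is highest, ANKRD1 lowest, and the groups of CYR61 are separate.

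From 21 other target genes of YAP-TEAD, 20 were tested, RBMS3 having too few counts, and 2 were higher in IL17D cells, with 0 lower. These were IGFBP3, which binds insulin-like growth factors, and NUAK2, an AMPK-related kinase. IGFBP3 had 2134, 2048 and 2172 CPM in control and 2390, 2429 and 2328 CPM in IL17D libraries. The groups did not overlap, and the log2 fold change was 0.17 with a standard error of 0.026 (adjusted p = 8.8e-05). NUAK2 rose from 91.8 ± 2.02 to 107.5 ± 5.28 CPM (log2 fold change 0.23, adjusted p = 0.0046), a call that was lost without IL17D replicate 1 (adjusted p = 0.089, with a range from 0.00098 over the alternatives). MYOF (1103 ± 37.2 and 1047 ± 8.36 CPM, adjusted p = 0.26), GADD45A (39.4 ± 2.75 and 44.3 ± 1.33 CPM, adjusted p = 0.29) and CRIM1 (618 ± 10.2 and 587 ± 12.3 CPM, adjusted p = 0.30) came next. The median log2 fold change of the 20 genes was 0.0096, with 11 estimates above 0 and 9 below, and the groups did not overlap for 4 higher and 3 lower genes. Over all tested genes 0.673% were called higher, and 7.48% and 8.31% did not overlap as higher and lower.

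Of 21 Hippo kinases and adaptors, 19 were tested, 1 was higher and 0 lower, against 0.673% and 0.908% of all tested genes. This was FAT4, a giant protocadherin, with 31.9, 31.1 and 34.6 CPM in control and 42.7, 39.7 and 41.6 CPM in IL17D libraries. The log2 fold change of FAT4 was 0.34 with a standard error of 0.070 (adjusted p = 0.0036). The adaptor RASSF1 had 23.5 ± 1.64 and 27.1 ± 1.33 CPM (adjusted p = 0.29), the scaffold gene WWC2 86.8 ± 2.67 and 94.1 ± 3.13 CPM (0.32), and WWC1 268 ± 5.03 and 282 ± 5.91 CPM (0.44). The median over the 19 genes was 0.06, with 13 estimates above 0, against 49.9% of all tested genes. The groups did not overlap for 4 higher genes (FAT4, RASSF1, WWC1 and WWC2) and 1 lower gene (TAOK3). Of all tested genes, 7.48% and 8.31% did not overlap in these directions. AMOT and DCHS1 had too few counts for testing.

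Of the other TEAD genes and the Vestigial-like cofactors, which also bind TEAD proteins, 4 of 6 were tested and 0 passed, with 0 at an unadjusted p under 0.05 as well, and 0 with DESeq2 and with limma voom. Of all tested genes, 1.58% passed, and 11.6% had an unadjusted p under 0.05. TEAD2 had 20.4 CPM in control and 19.8 in IL17D cells, TEAD3 8.77 and 9.40, VGLL3 18.4 and 16.8, and VGLL4 28.1 and 28.2. VGLL1 and VGLL2 had 0 counts in every library, which allows up to 3 counts, or 0.182 to 0.210 CPM. Of the other CCN genes, WISP2 had 47.1 and 48.5 CPM and NOV 0.694 and 0.902 CPM, and neither passed. WISP1 and WISP3 had too few counts for testing. Among 7 FOS and JUN genes, which encode AP-1 subunits, FOSL1 (44.9 ± 1.83 to 54.1 ± 1.95 CPM, adjusted p = 0.011) and FOSL2 (185 ± 7.55 to 214 ± 6.17 CPM, adjusted p = 0.0015) were higher and 0 were lower. Over all tested genes, 0.673% were called higher and 0.908% lower. JUNB (44.9 ± 3.63 and 52.1 ± 3.36 CPM, adjusted p = 0.11), JUN (53.2 ± 2.89 and 60.1 ± 2.39 CPM, 0.15) and FOS (6.42 ± 0.282 and 8.04 ± 2.08 CPM, 0.43) came next. At an unadjusted p under 0.05, 4 of the 7 were higher and 0 lower, against 11.6% of tested genes in either direction. The groups did not overlap for 4 higher and 1 lower of the 7, against 7.48% and 8.31% of all tested genes. The FOSL1 call was lost without control replicate 2 (adjusted p = 0.073) and without IL17D replicate 1 (0.094), and over the 12 alternatives the adjusted p ran from 0.0053 to 0.094.

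The genes whose log2 CPM followed CYR61 most closely over the 6 libraries, among 9740 genes with a mean of at least 10 CPM, were ATAD1, TRIM35, NR4A1, CD55 and FAM83A, with Pearson correlations from 0.993 to 0.997. For CTGF these were GLA, STAMBPL1, GDF11, RPS20 and PLCB3, from 0.976 to 0.991. Correlations above 0.9 with CYR61 were reached by 209 genes and with CTGF by 75. These points share the library and the group, so the values only describe these 6 libraries. NR4A1, CD55 and FAM83A were among the genes with an adjusted p under 0.05, and none of the 5 genes nearest to CTGF was. Over all tested genes the share was 1.58%. Because the groups of CYR61 did not overlap, genes chosen for likeness to it tend to differ by group as well.

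**Figure D5:**
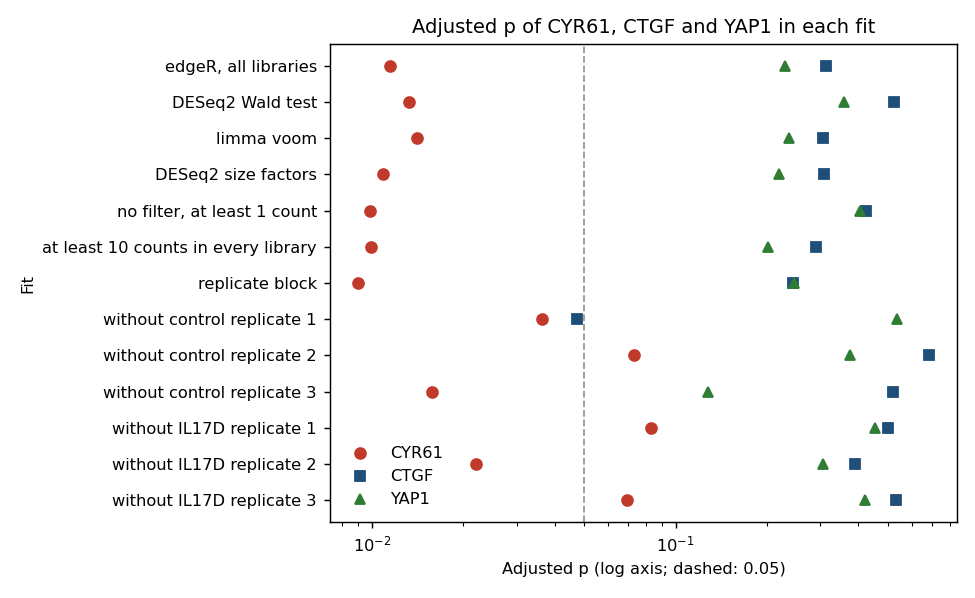
Adjusted p of CYR61, CTGF and YAP1 on a log axis, in the edgeR test on all libraries and in 12 alternatives, 1 row each, with a dashed line at 0.05. CYR61 lies under the line in the main test and in 9 of the 12 alternatives, CTGF in 1, and YAP1 in 0.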

How the data were processed

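Total RNA of A549 cells was sequenced in 6 libraries, and the deposited counts per gene, not normalized, were used as the authors provided them. The submitters' processing notes name Bowtie2 and hg38. The counting tool and its strand setting are not given in the sources used here, and the labels and the methods name different sequencers. All 58735 genes had the coordinates of GENCODE 29. Levels are CPM of TMM-scaled library sizes, and genes kept by filterByExpr were compared with edgeR 4.0.16 (R 4.3.3) by its quasi-likelihood test, two-sided, without covariates, with Benjamini-Hochberg adjustment over all tested genes and a threshold of 0.05. DESeq2 1.42.0, limma 3.58.1 (voom), other size factors, other filters, a replicate block and leaving out each library were the alternatives. The fit was tested on simulated data. Depth was 14319398 to 16521021 counts per library, and 3 counts correspond to 0.182 to 0.210 CPM. Intervals of 95% come from the edgeR fit. The spread that counting alone gives is the Poisson value. The 10 genes and the gene lists were chosen with earlier results of these data known. All 10 were named, and from the other lists the genes with an adjusted p under 0.05 and up to 3 further genes by p. Libraries within a group differed by more than sampling noise, so none was counted as a duplicate. Promoter sequences were taken from RefSeq. A gene of the list of other targets is not reported here, and it was left out of that list's counts.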

Additional observations from a re-analysis of the deposited data

How the results depend on the processing

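Under DESeq2, limma voom, DESeq2 size factors, other count filters and the replicate block, CYR61 stayed the 1 gene of the 10 called. Leaving out 1 library at a time gave 0 to 2 of the 10 genes called higher and 0 lower, 1 to 2 of the other targets higher, and over all tested genes 69 to 129 higher and 76 to 138 lower. The estimates of 3 uncalled genes turned sign: LATS2 to -0.027 without control replicate 3 and -0.017 without IL17D replicate 2, TEAD1 to -0.011 without control replicate 1 and TEAD4 to -0.017 without IL17D replicate 1. With other libraries left out they reached 0.074 for LATS2, 0.093 for TEAD1 and 0.10 for TEAD4. The cause was not tested. IGFBP3, FAT4 and FOSL2 were called under all 12 alternatives, which for genes outside the 10 were chosen after seeing the data. With the replicate number as a block, 115 genes were higher and 157 lower, and CYR61 had an adjusted p of 0.0090. Deviations from the group mean in log2 CPM correlated at 0.069, -0.110 and -0.067 between same-numbered libraries. Between differently numbered libraries they correlated at -0.145 to 0.199, so these values give no sign of a pairing. Whether same-numbered libraries shared a culture or a batch was not tested. ANKRD1 had the fewest counts of the 10 genes.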
